A study of Homo sapiens with 8 samples.

Results

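The genes of serine synthesis and folate-dependent one-carbon metabolism were examined in 2 cell lines established from Ewing sarcoma, RD-ES and SK-N-MC, with and without silencing of the enhancer of LOXHD1. The 10 genes were PHGDH, PSAT1, PSPH, SHMT1, SHMT2, MTHFD1, MTHFD1L, MTHFD2, MTHFD2L and ALDH1L2. They were chosen by symbol among the 60332 genes measured and, where a symbol had several entries, by the highest mean FPKM (reads scaled to the length of the transcript and the size of the library). Each of the 10 symbols had 1 entry, so no measured value decided between entries, and all 10 passed the filter of a mean of at least 1 FPKM that left 15175 genes for testing. The pathway itself was picked with earlier results of these data known, including the change upon silencing, so the counts and p-values of these genes describe them and are no independent support for the pathway.

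The study compared control cells with eKD2 cells, in which the enhancer was silenced by CRISPR interference. For this they expressed a catalytically dead Cas9 fused to the KRAB repressor domain (dCas9-KRAB) and a guide RNA next to the GGAA repeat of the LOXHD1 enhancer. According to the sample labels, the controls received the dCas9-KRAB virus without a guide, whereas the text of the study calls them parental, and these cannot be told apart here. There were 2 control and 2 eKD2 libraries from each line (8 in all), and the eKD2 cells were polyclonal pools. By the methods, infected cells received virus at an MOI of 10 and 1 µg/ml puromycin for 3 days, and were used within 5 passages. For the controls this holds only if they were infected, so virus and puromycin may differ between control and eKD2. The study calls the 2 libraries of a group biological duplicates, and neither the labels nor the methods say whether they came from separate infections.

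LOXHD1, the gene that the enhancer knockdown targets, was at 21.4 and 21.2 FPKM in the RD-ES controls and 1.04 and 1.02 FPKM in RD-ES eKD2. The SK-N-MC values were 159 and 169 FPKM in the controls and 11.0 and 12.0 FPKM in eKD2. LOXHD1 fell in both lines (limma adjusted p = 1.1e-04 and 3.7e-05). In RNA of a whole culture, fewer cells that express a gene and less of its RNA per cell cannot be told apart. All 6 Ewing sarcoma markers (CD99, NKX2-2, NR0B1, STEAP1, PRKCB and CCK) were detected in every library, at 2.38 to 586 FPKM in RD-ES and 24.2 to 432 FPKM in SK-N-MC. Of 5 markers of other cells, MYOG was listed at 0 in all libraries, DES did not exceed 0.129 FPKM, and PECAM1 was not found under that symbol. EPCAM, an epithelial marker, lay between 0.300 and 0.971 FPKM in RD-ES and between 2.96 and 4.54 FPKM in SK-N-MC. PTPRC, a leukocyte marker, was at most 0.0173 FPKM in RD-ES but between 19.2 and 22.6 FPKM in SK-N-MC. PTPRC was at a similar level in SK-N-MC control and eKD2 (21.5 and 22.6 against 19.2 and 21.8 FPKM), and its part in the differences between the lines was not tested.

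Cells make serine from a glycolytic intermediate in a short chain of steps. PHGDH oxidizes 3-phosphoglycerate, PSAT1 transfers an amino group from glutamate, and PSPH removes the phosphate to give serine. Serine hydroxymethyltransferases, SHMT1 in the cytosol and SHMT2 in mitochondria, then pass a carbon unit from serine to tetrahydrofolate and leave glycine. In mitochondria MTHFD2 and MTHFD2L oxidize the folate-bound unit, MTHFD1L releases it as formate, and ALDH1L2 oxidizes it to carbon dioxide. In the cytosol MTHFD1 takes up formate for the synthesis of purines and thymidylate. Several of these genes are known targets of ATF4, a transcription factor that raises amino acid synthesis and transport genes when amino acids are short or the endoplasmic reticulum is under stress, and MYC, which binds E-box sequences, is also known to raise many of them.

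Promoter sequences of RefSeq, 300 bases around each annotated start, were at hand for 7 of the 10 genes (11 windows). They were located on GRCh37 by exact match and searched on both strands for TGATGNAA, the core of the response element that ATF4 and C/EBP proteins bind, for the E-box CACGTG, and for GGAAGGAA, a pair of the units that EWSR1::FLI1 binds in repeats. TGATGNAA was found in 3 of the 11 windows, all of MTHFD1L and all holding the same match, and in 3.62% of the 35116 promoter windows of the genome. CACGTG was found in 4 of the 11, 1 of MTHFD1 and 3 of MTHFD1L that again share their match, and in 7.26% of all windows, whereas GGAAGGAA was in none of the 11 and in 3.67% of all windows. A match is a string of letters and not a measured site. In the list of ATF4 response genes 4 of 12 genes with a promoter at hand held TGATGNAA (ASNS, ATF3, CHAC1 and FGF21), or 4 of 19 windows. SESN2, DDIT3, DDIT4 and TRIB3, which rose in RD-ES, did not hold it. Of the 4 genes with a match, FGF21 was below the filter of 1 FPKM and was not tested. The sequences that matched are shown with those of ASNS and CHAC1, picked from these 4 as examples on either strand, so that the letters can be compared. Capitals mark the TGATGNAA match (on the opposite strand in CHAC1), and each sequence is read on the strand of its gene.
MTHFD1L (chr6:151187482-151187511, plus strand): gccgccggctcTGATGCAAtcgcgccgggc
ASNS (chr7:97501770-97501799, minus strand): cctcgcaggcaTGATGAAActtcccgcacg
CHAC1 (chr15:41245449-41245478, plus strand): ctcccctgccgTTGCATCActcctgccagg

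The E-box, in capitals, lay within these bases of the other matching promoters.
MTHFD1 (chr14:64855044-64855073, plus strand): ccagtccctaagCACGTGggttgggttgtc
MTHFD1L (chr6:151187456-151187485, plus strand): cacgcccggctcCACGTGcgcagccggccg

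In the control cells the 10 genes spanned a wide range of levels. PHGDH was the highest in both lines, at 412 ± 0.684 FPKM in RD-ES and 560 ± 1.08 FPKM in SK-N-MC (SD, n = 2 each), which ranked it 261 and 158 among the 15175 genes. ALDH1L2 was the lowest, at 1.90 ± 0.298 FPKM in RD-ES (rank 12753) and 7.92 ± 0.003 FPKM in SK-N-MC (rank 9497). FPKM is a level per transcript length, so these genes can be ranked within a line. In RD-ES the order of control means was PHGDH, SHMT2, MTHFD2, MTHFD1, PSAT1, PSPH, MTHFD1L, SHMT1, MTHFD2L and ALDH1L2, and only PSPH and MTHFD1L, next to each other at 45.3 ± 3.82 and 44.7 ± 1.36 FPKM, had overlapping values. In SK-N-MC the order was PHGDH, PSAT1, MTHFD2, SHMT2, MTHFD1, PSPH, MTHFD1L, SHMT1, MTHFD2L and ALDH1L2, and no neighbours in that order overlapped.

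**Figure D1:**
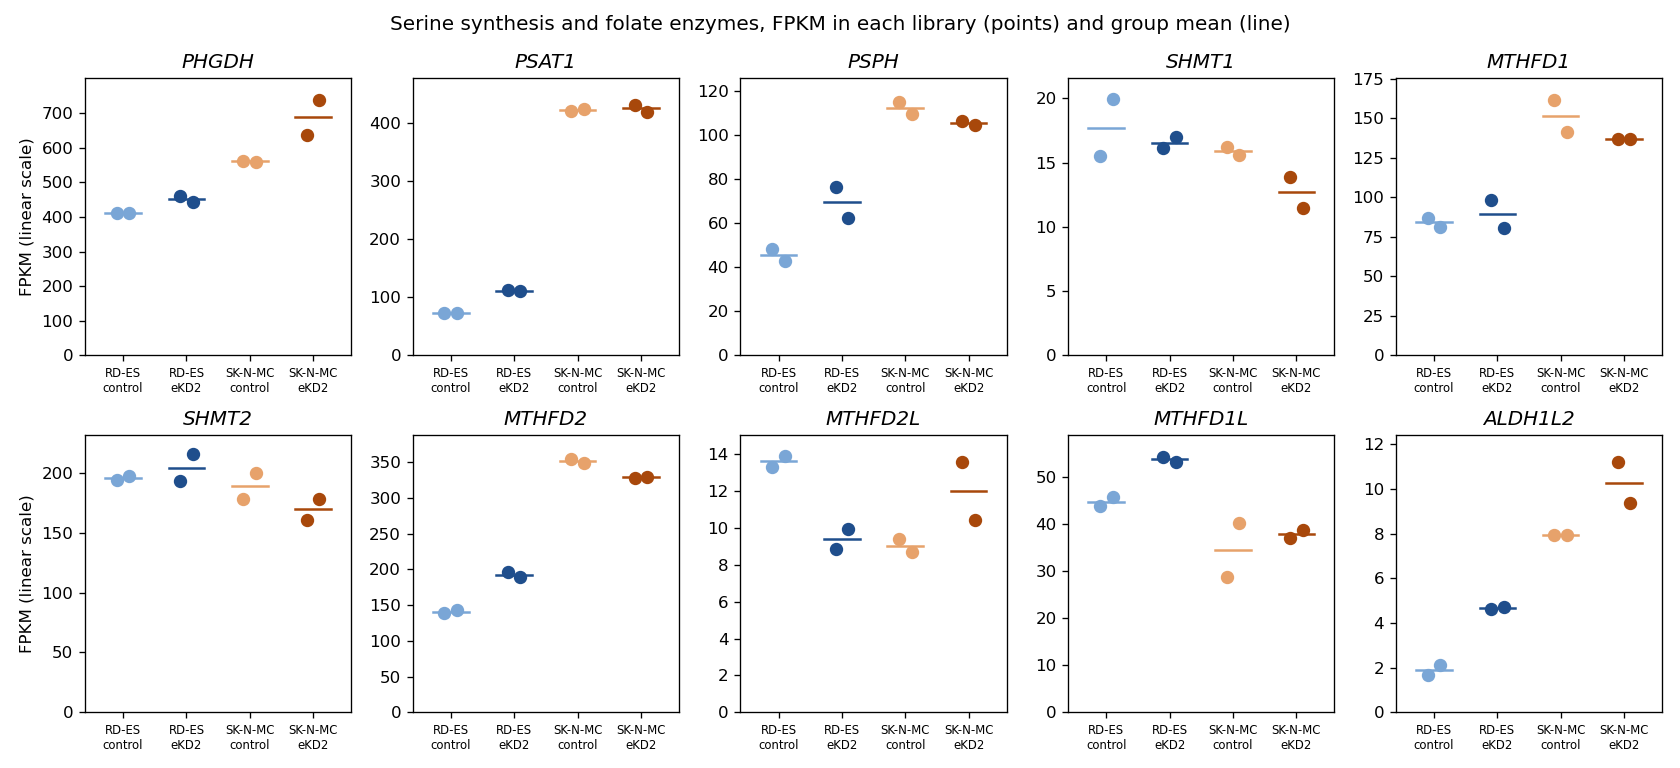
FPKM (linear axis) of each of the 10 genes, 1 panel a gene, in control and eKD2 libraries of RD-ES and SK-N-MC, with points for libraries and a line at the mean of the 2. PSAT1 stood at 72.3 to 73.6 FPKM in the RD-ES controls, 110 to 113 FPKM in RD-ES eKD2 and 420 to 433 FPKM in all 4 SK-N-MC libraries.

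The lines differed in 7 of the 10 genes before any silencing (limma adjusted p under 0.05), where 57.8% of all genes tested differed. PHGDH, PSAT1, PSPH, MTHFD1, MTHFD2 and ALDH1L2 were higher in SK-N-MC, and MTHFD2L was higher in RD-ES. At an unadjusted p under 0.05, 6 of the 10 were higher in SK-N-MC and 2 lower, against 34.2% and 28.7% of all genes. The widest gap was that of PSAT1, at 73.0 ± 0.876 FPKM in RD-ES and 424 ± 2.51 FPKM in SK-N-MC, a 5.81-fold difference (limma adjusted p = 2.8e-06). ALDH1L2 was 4.16-fold higher in SK-N-MC (limma adjusted p = 1.5e-04), MTHFD2 2.498-fold (1.4e-05) and PSPH 2.47-fold (2.4e-04). MTHFD1 was 1.80-fold higher (limma adjusted p = 0.0014) and PHGDH, the most abundant, 1.36-fold (0.0033). MTHFD2L was 1.51-fold higher in RD-ES (limma adjusted p = 0.0148), a call that was lost without any 1 of the 4 control libraries (adjusted p 0.0521 to 0.0856). For SHMT2 the log2 difference, SK-N-MC minus RD-ES, was -0.056 (95% interval -0.28 to 0.166, limma adjusted p = 0.63), for SHMT1 it was -0.14 (limma adjusted p = 0.44) and for MTHFD1L -0.39 (limma adjusted p = 0.067). Reads of PSPH may be shared with its near copy PSPHP1, which was at 15.5 and 9.38 FPKM in the RD-ES controls and at 0.514 and 0 FPKM in the SK-N-MC controls, so the level of PSPH is uncertain.

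Upon silencing, PSAT1 and MTHFD2 were higher in RD-ES at the adjusted threshold, which no gene of the 10 passed in SK-N-MC. In RD-ES 2 of the 10 genes passed an adjusted p of 0.05 (limma, all 15175 genes), where 0.343% of all genes did. At an unadjusted p under 0.05, 4 of the 10 (PSAT1, PSPH, MTHFD2 and ALDH1L2) were higher in RD-ES eKD2, against 8.49% of all genes, and 1 (MTHFD2L) was lower, against 3.79%. In SK-N-MC the adjusted count was 0 of 10, where 0.323% of all genes passed. At an unadjusted p under 0.05, PHGDH, MTHFD2L and ALDH1L2 were higher in SK-N-MC eKD2, against 5.71% of all genes, and none was lower, against 7.29%. How the scaling was done set the balance of all genes in RD-ES. Of the genes with an unadjusted p under 0.05, the share that was higher in eKD2 was 69.14% as deposited, 41.22% with a common median for all libraries and 53.71% with quantile normalization. For the difference in response between the lines, SK-N-MC minus RD-ES, the share of higher values was 32.36%, 56.26% and 43.43%.

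The median log2 difference of the 10 genes was 0.20 in RD-ES (all genes 0.031) and -0.041 in SK-N-MC (all genes -0.0049). In RD-ES the log2 differences ran from -0.49 for MTHFD2L to 0.97 for ALDH1L2, and 8 of the 10 lay above 0, or 7 after median scaling, which turned SHMT2. In SK-N-MC they ran from -0.31 for SHMT1 to 0.36 for MTHFD2L, with 5 of the 10 above 0. The eKD2 libraries did not overlap the controls for 6 genes higher and 1 lower in RD-ES, where 24.2% and 15.1% of all genes separated in that way. In SK-N-MC this held for 3 genes higher and 4 lower (22.2% and 25.1% of all genes).

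**Figure D2:**
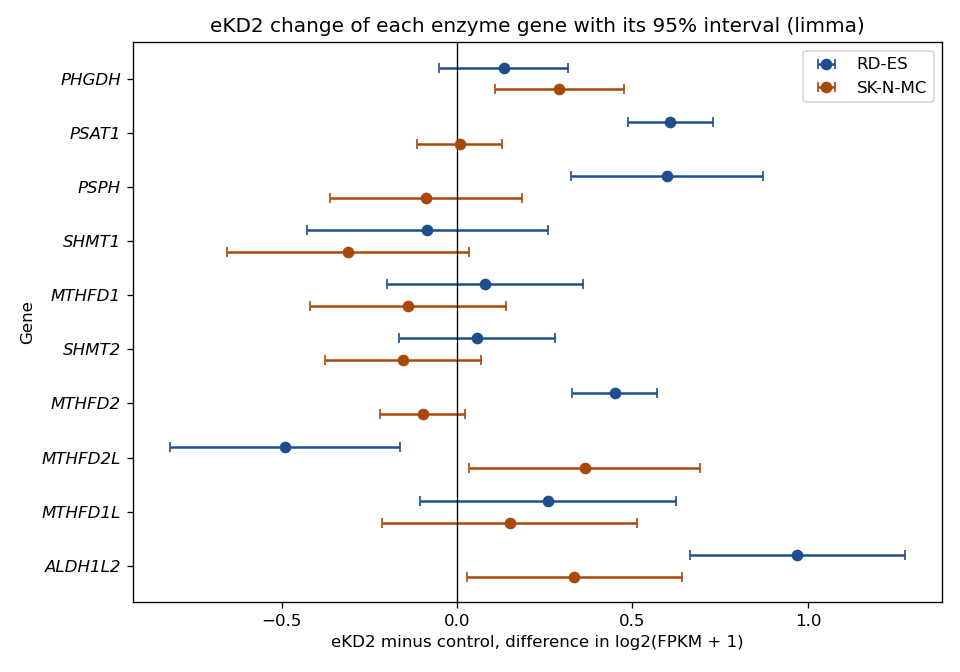
Difference in log2(FPKM + 1), eKD2 minus control, of each gene in RD-ES and SK-N-MC, with the 95% interval of the limma fit. In RD-ES the intervals of PSAT1, PSPH, MTHFD2 and ALDH1L2 lay above 0 and that of MTHFD2L below, whereas in SK-N-MC those of PHGDH, MTHFD2L and ALDH1L2 lay above 0.

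Of the 3 enzymes that make serine, only PSAT1, which forms phosphoserine, passed the adjusted threshold in RD-ES. PSPH was higher by the same fold (1.53) without passing. PSAT1 (ENSG00000135069.13_2, chromosome 9, 80912041 to 80945009, plus strand) was at 72.3 and 73.6 FPKM in the RD-ES controls and 113 and 110 FPKM in RD-ES eKD2. The groups did not overlap and the replicates differed by a few FPKM. The log2 difference was 0.61 (SE 0.050, 1.53-fold, limma adjusted p = 0.011), the 25th lowest p of all genes. Over 15 alternatives the adjusted p ran from 0.00825 to 0.198, with the highest value when RD-ES was fitted alone. The call was also lost with the replicate block (0.135), without the trend (0.0566), and without SK-N-MC control replicate 1 (0.054) or 2 (0.0557). In SK-N-MC, PSAT1 was at 422 and 426 FPKM in the controls and at 433 and 420 FPKM in eKD2, overlapping values with a log2 difference of 0.0072 (95% interval -0.115 to 0.13, limma adjusted p = 0.99). The upper bound of that interval lay below the lower bound of the interval in RD-ES, 0.49.

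PSPH (ENSG00000146733.13_2, chromosome 7, 56078744 to 56119297, minus strand), the phosphatase of the last step, was at 48.0 and 42.6 FPKM in the RD-ES controls and 76.5 and 62.4 FPKM in RD-ES eKD2. Both eKD2 libraries lay above both controls, with a spread in eKD2 wider than that of PSAT1. The log2 difference was 0.60 (SE 0.112, 1.53-fold) and did not pass the adjustment (limma adjusted p = 0.16, unadjusted 0.0017). PSPHP1 was at 18.6 and 16.0 FPKM in RD-ES eKD2, above its control values, and the share of its reads in the PSPH values was not tested. In SK-N-MC, PSPH was at 115 and 109 FPKM in the controls and at 106 and 104 FPKM in eKD2 (log2 difference -0.089, 95% interval -0.36 to 0.185, limma adjusted p = 0.81).

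PHGDH (ENSG00000092621.12_3, chromosome 1, 120191034 to 120286841, plus strand), the first enzyme of the chain, was at 411 and 412 FPKM in the RD-ES controls and 461 and 442 FPKM in RD-ES eKD2. The groups did not overlap, but the log2 difference of 0.13 (95% interval -0.050 to 0.32) did not pass the test (limma adjusted p = 0.54). SK-N-MC had 561 and 559 FPKM in the controls and 637 and 738 FPKM in eKD2, a log2 difference of 0.29 (SE 0.0752, limma adjusted p = 0.22, unadjusted 0.0081). Here too both eKD2 libraries lay above the controls, and they were about 100 FPKM apart. The FPKM of PSAT1 relative to PHGDH was 0.176 and 0.179 in the RD-ES controls and 0.245 and 0.250 in RD-ES eKD2, whereas in SK-N-MC it was 0.753 and 0.761 in the controls and 0.679 and 0.568 in eKD2. The ratio was thus higher in eKD2 in the first line and lower in the second, without overlap in either.

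Among the mitochondrial folate enzymes, MTHFD2, the dehydrogenase and cyclohydrolase known for its high level in tumours and embryonic tissue, rose in RD-ES. MTHFD2 (ENSG00000065911.11_2, chromosome 2, 74413299 to 74444692, plus strand) was at 139 and 143 FPKM in the controls and at 196 and 189 FPKM in eKD2. The log2 difference was 0.45 (SE 0.0495, 1.37-fold, limma adjusted p = 0.033). The call was close to the threshold and was lost without any 1 of the 8 libraries, the SK-N-MC ones included. It was also lost after median scaling (limma adjusted p = 0.0847), without the trend (0.126), with the replicate block (0.224) and with RD-ES fitted alone (0.381). The log2 difference was 0.377 after median scaling and between 0.423 and 0.475 without 1 RD-ES library. The other settings named here cannot change the log2 difference. In SK-N-MC, MTHFD2 was at 355 and 349 FPKM in the controls and at 328 and 329 FPKM in eKD2, a log2 difference of -0.097 (95% interval -0.22 to 0.024, limma adjusted p = 0.48). The annotated exons of MTHFD2 overlap those of SLC4A5 on the opposite strand over 1324 bases, and the library kit did not keep the strand. SLC4A5 did not exceed 2.63 FPKM in RD-ES.

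MTHFD2L (ENSG00000163738.18_3, chromosome 4, 74979891 to 75168816, plus strand), the paralog of MTHFD2, stood far below it. It was at 13.3 and 13.9 FPKM in the RD-ES controls and 8.87 and 9.95 FPKM in RD-ES eKD2, a log2 difference of -0.49 (SE 0.135, limma adjusted p = 0.25, unadjusted 0.011). In SK-N-MC it was at 9.40 and 8.67 FPKM in the controls and at 13.6 and 10.4 FPKM in eKD2, a log2 difference of 0.36 (95% interval 0.035 to 0.69, limma adjusted p = 0.34, unadjusted 0.035). Both eKD2 libraries were thus below the controls in RD-ES and above them in SK-N-MC, and neither difference passed the adjustment.

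ALDH1L2 (ENSG00000136010.13_2, chromosome 12, 105413562 to 105501421, minus strand), the mitochondrial formyltetrahydrofolate dehydrogenase, had the largest log2 difference of the 10 genes in RD-ES and the lowest control level in both lines. It was at 1.69 and 2.11 FPKM in the RD-ES controls and 4.63 and 4.70 FPKM in RD-ES eKD2, a log2 difference of 0.97 (SE 0.126, 2.46-fold by the means). It missed the threshold (limma adjusted p = 0.0625) and passed it with a pseudocount of 0.1 in place of 1 (log2 difference 1.26, adjusted p = 0.0412). The limma adjusted p was 0.0896 after median scaling, 0.265 with the replicate block and 0.49 with RD-ES fitted alone. In SK-N-MC it was at 7.91 and 7.92 FPKM in the controls and at 11.2 and 9.35 FPKM in eKD2, a log2 difference of 0.33 (95% interval 0.028 to 0.64, limma adjusted p = 0.35). ALDH1L2 was the only one of the 10 with an interval above 0 in both lines. Its exons overlap 131 bases of WASHC4 and 145 bases of NOPCHAP1 on the opposite strand, and both of these genes were far more abundant. WASHC4 was at 35.5 and 35.4 FPKM in the RD-ES controls and 47.4 and 48.6 FPKM in RD-ES eKD2, so reads of WASHC4 may be counted for ALDH1L2, and their part was not tested.

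The other mitochondrial enzymes did not pass the test. MTHFD1L (ENSG00000120254.15_3, chromosome 6, 151186815 to 151423023, plus strand), the formate-releasing synthetase, was at 43.7 and 45.6 FPKM in the RD-ES controls and 54.1 and 53.2 FPKM in RD-ES eKD2, groups that did not overlap (log2 difference 0.26, 95% interval -0.105 to 0.62, limma adjusted p = 0.54). In SK-N-MC its controls were 28.7 and 40.1 FPKM and took in the eKD2 values of 37.0 and 38.6 FPKM. SHMT2 (ENSG00000182199.10_3, chromosome 12, 57623356 to 57628718, plus strand), which feeds the mitochondrial pathway from serine, was at 194 and 197 FPKM in the RD-ES controls and 193 and 215 FPKM in RD-ES eKD2. The groups overlapped (log2 difference 0.057, 95% interval -0.165 to 0.28, limma adjusted p = 0.85). In SK-N-MC, SHMT2 was at 178 and 199 FPKM in the controls and at 161 and 178 FPKM in eKD2 (log2 difference -0.15, 95% interval -0.38 to 0.068, limma adjusted p = 0.53).

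The cytosolic enzymes did not pass either. MTHFD1 (ENSG00000100714.15_3, chromosome 14, 64854749 to 64930175, plus strand), the cytosolic enzyme with all 3 folate activities, was at 87.1 and 81.1 FPKM in the RD-ES controls and 98.2 and 80.4 FPKM in RD-ES eKD2, overlapping groups with a log2 difference of 0.079 (95% interval -0.199 to 0.36, limma adjusted p = 0.83). The SK-N-MC controls had 161 and 141 FPKM of MTHFD1, against 137 FPKM in both eKD2 libraries, a log2 difference of -0.14 (95% interval -0.42 to 0.14, limma adjusted p = 0.68). SHMT1 (ENSG00000176974.19_3, chromosome 17, 18231174 to 18266877, minus strand), the cytosolic serine hydroxymethyltransferase, was at 15.5 and 19.9 FPKM in the RD-ES controls and 16.1 and 17.0 FPKM in RD-ES eKD2. The RD-ES eKD2 values lay between the controls (log2 difference -0.084, 95% interval -0.43 to 0.26, limma adjusted p = 0.86). In SK-N-MC, SHMT1 was at 16.2 and 15.6 FPKM in the controls and at 13.9 and 11.5 FPKM in eKD2, without overlap, and the log2 difference of -0.31 (95% interval -0.655 to 0.033) did not pass (limma adjusted p = 0.43).

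Whether the response to silencing differed between the lines was tested as an interaction. None of the 10 genes passed an adjusted p of 0.05 (limma), where 0.244% of all genes did. At an unadjusted p under 0.05, the difference was lower in SK-N-MC than in RD-ES for 4 genes (PSAT1, PSPH, MTHFD2 and ALDH1L2), against 9.16% of all genes, and higher for 1 (MTHFD2L), against 4.38%. PSAT1 came nearest, with a log2 difference of -0.60 between the lines (SE 0.0707, 95% interval -0.77 to -0.43, limma adjusted p = 0.0548). Without the filter on low values its limma adjusted p was 0.0394. It did not pass with a pseudocount of 0.1 (0.0529), quantile normalization (0.0848) or median scaling (0.115). Nor did it pass without the trend (0.157) or with the replicate block (0.245). MTHFD2 followed with -0.55 (95% interval -0.72 to -0.375, limma adjusted p = 0.070). For MTHFD2L the log2 difference between the lines was 0.85 (95% interval 0.39 to 1.32, limma adjusted p = 0.20), for PSPH it was -0.69 (0.21), and for ALDH1L2 -0.64 (0.25). The 2 lines thus cannot be said to differ in the response of these genes to silencing at the adjusted threshold. PSAT1 and MTHFD2 nonetheless passed in RD-ES and not in SK-N-MC.

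The ratio of paralogs was compared by library as a description. MTHFD2 over MTHFD2L, both in FPKM, was 10.4 and 10.3 in the RD-ES controls and 22.1 and 19.0 in RD-ES eKD2. In SK-N-MC it was 37.7 and 40.2 in the controls and 24.2 and 31.5 in eKD2. The eKD2 ratios were higher than the controls in RD-ES and lower in SK-N-MC, and all 4 eKD2 values lay between the controls of the 2 lines. SHMT2 over SHMT1, the mitochondrial over the cytosolic enzyme, ran from 9.92 to 15.5 over the 8 libraries and overlapped between control and eKD2 in both lines. MTHFD1 over MTHFD1L was 1.51 to 1.99 in RD-ES and 3.53 to 5.61 in SK-N-MC, without overlap between the lines and with overlap between control and eKD2 in each.

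**Figure D3:**
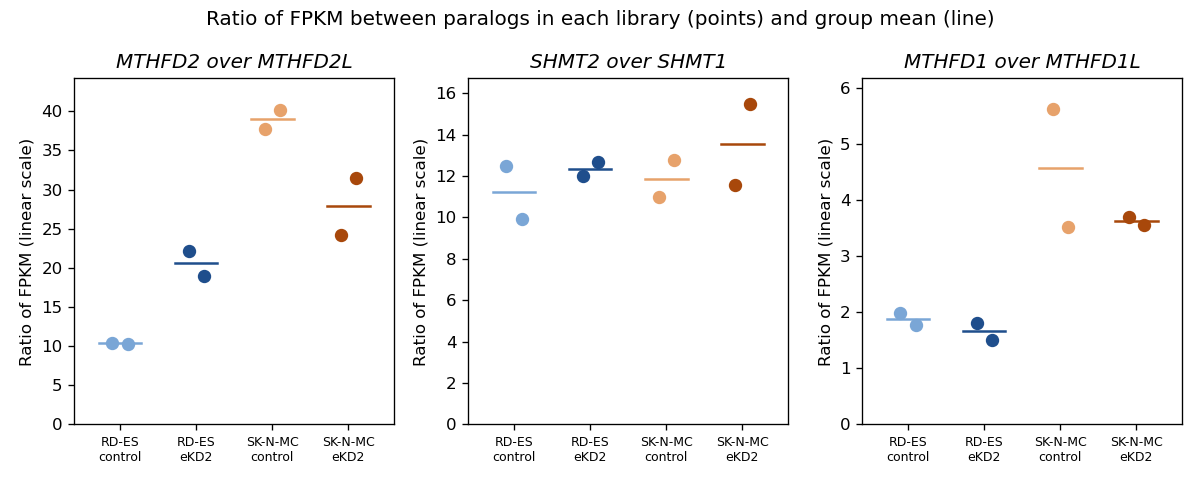
Ratio of FPKM (linear axis) of MTHFD2 over MTHFD2L, SHMT2 over SHMT1 and MTHFD1 over MTHFD1L in each library (points), with the mean of the 2 libraries of a group (line). MTHFD2 over MTHFD2L was 10.3 to 10.4 in the RD-ES controls, 19.0 to 22.1 in RD-ES eKD2, 37.7 to 40.2 in the SK-N-MC controls and 24.2 to 31.5 in SK-N-MC eKD2.

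The neighbouring pathways were compared through gene lists. Of 14 other folate cycle genes tested, none passed the adjusted threshold in either line (limma), and the median log2 difference was -0.066 in both lines. SLC25A32, the mitochondrial folate carrier, was at 27.7 ± 0.335 FPKM in the RD-ES controls and 24.0 ± 0.666 FPKM in RD-ES eKD2, and at 29.9 ± 0.601 and 25.9 ± 0.794 FPKM in SK-N-MC (SD, n = 2 each). Its log2 difference was -0.20 in each line (limma adjusted p = 0.33 and 0.31). None of the 4 glycine cleavage genes passed, with GLDC, the decarboxylase of that system, at 8.26 ± 0.381 and 10.8 ± 0.252 FPKM in RD-ES control and eKD2 (log2 difference 0.35, limma adjusted p = 0.19) and GCSH, its lipoyl carrier, at 2.53 ± 0.214 and 1.38 ± 0.196 FPKM (log2 difference -0.57, limma adjusted p = 0.29). None of 6 purine synthesis genes passed (medians -0.054 for RD-ES, -0.076 for SK-N-MC), nor any of 5 methionine cycle genes (-0.159 and 0.025). In the latter MAT2A, which makes S-adenosylmethionine, was at 223 ± 1.82 and 198 ± 3.45 FPKM in RD-ES control and eKD2 (log2 difference -0.17, limma adjusted p = 0.28).

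Among 10 genes that use or carry serine and glycine, CTH rose in RD-ES, and no other gene passed in either line (limma). CTH, cystathionine gamma-lyase, which makes cysteine from serine-derived cystathionine, was at 5.17 and 5.74 FPKM in control RD-ES and 25.9 and 25.3 FPKM in RD-ES eKD2. The eKD2 values stood well above the controls (log2 difference 2.04, SE 0.0804, limma adjusted p = 6.6e-04). The SK-N-MC controls had 15.0 and 14.5 FPKM of CTH, against 12.0 and 11.9 FPKM in eKD2 (log2 difference -0.28, limma adjusted p = 0.25). The serine transporter SLC1A4 had means of 10.7 and 13.4 FPKM in RD-ES control and eKD2 (log2 difference 0.29, limma adjusted p = 0.29).

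ATF4 response genes were the list with the most calls. Of 13 tested, 8 rose in RD-ES eKD2 (limma adjusted p under 0.05) and none fell, with a median log2 difference of 1.30 (0.343% of all genes passed, and their median was 0.031). In SK-N-MC none passed, at an unadjusted p under 0.05 there were 2 higher and 5 lower, and the median was -0.17. The 8 were CHAC1, SESN2, DDIT4, ATF3, DDIT3, ASNS, TRIB3 and SLC7A11. With RD-ES fitted alone all 8 calls and that of CTH were lost (limma adjusted p 0.108 to 0.49), and of the alternatives the call of SLC7A11 held only with a pseudocount of 0.1 and without RD-ES eKD2 replicate 2. CHAC1, a glutathione-degrading enzyme, was at 3.02 and 3.63 FPKM in the RD-ES controls and 44.3 and 56.3 FPKM in RD-ES eKD2 (log2 difference 3.56, limma adjusted p = 6.6e-04). In SK-N-MC it was at 96.9 and 107 FPKM in the controls and at 50.0 and 57.1 FPKM in eKD2 (log2 difference -0.92, limma adjusted p = 0.105), so the eKD2 cells of the 2 lines held CHAC1 at about the same level. ASNS, asparagine synthetase, rose in RD-ES from 59.5 ± 4.77 to 143 ± 6.18 FPKM (log2 difference 1.25, limma adjusted p = 0.0035) and was at 429 ± 10.4 and 537 ± 28.9 FPKM in SK-N-MC control and eKD2 (log2 difference 0.32, limma adjusted p = 0.21). ATF4 itself was at 197 ± 6.70 and 232 ± 0.537 FPKM in RD-ES control and eKD2 (log2 difference 0.24, limma adjusted p = 0.24) and at 449 ± 18.7 and 429 ± 21.9 FPKM in SK-N-MC. In the controls 11 of the 13 were higher in SK-N-MC than in RD-ES (limma adjusted p under 0.05), as were 4769 of all 15175 genes. Every comparison of eKD2 in RD-ES uses the same control libraries, so the values of the lists stand side by side without a test between them.

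**Figure D4:**
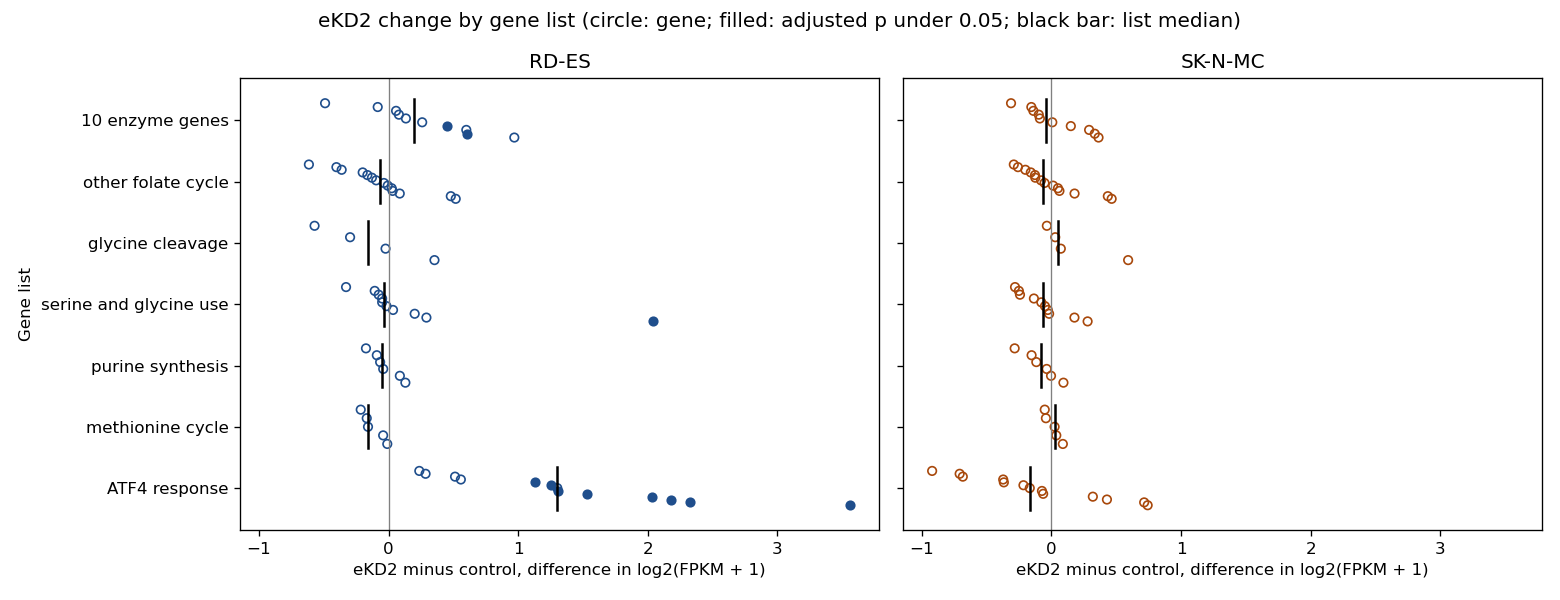
Difference in log2(FPKM + 1), eKD2 minus control, of every tested gene of 7 lists in RD-ES (left) and SK-N-MC (right), with filled circles for an adjusted p under 0.05 and a black bar at the list's median. Filled circles stand in RD-ES for PSAT1 and MTHFD2, for CTH and for 8 ATF4 response genes, and there are none in SK-N-MC.

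The genes whose pattern over the 8 libraries was most like that of the 10 were found by Pearson's r with the mean of the members' log2 deviations from their line mean. They were ENPP4 (r = 0.996), CLDN1 (0.995), PDCD4 (0.994), ARRDC4 (0.991) and AC097532.2 (0.991). ENPP4 was at only 0.052 to 0.123 FPKM in the SK-N-MC libraries, so its pattern there lies near the floor. The 8 libraries share 4 groups and the genes were picked as the highest of all tested, so r is a description only. ARRDC4, an arrestin-domain protein, had the largest log2 difference of these in RD-ES, 1.45, against 0.25 in SK-N-MC, and PDCD4, an inhibitor of translation, had 0.80 and 0.039.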

How the data were processed

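RNA of RD-ES and SK-N-MC, control and eKD2, was sequenced by the authors in 8 libraries (2 a group), which were poly-A selected and do not keep the strand. The authors aligned single-end reads to GRCh37 (hg19) with STAR and deposited FPKM values per gene and library, made with cufflinks and cuffnorm. The read numbers behind them are not given with the values and were not estimated, so no counting interval is given. Here log2(FPKM + 1) was fitted with limma 3.58.1 (lmFit and eBayes with trend, R 4.3.3) for 15175 genes averaging 1 FPKM or more, all 4 groups together, and p was adjusted after Benjamini-Hochberg over these genes. Differences on this scale understate those of low genes. With 2 libraries a side, the smallest two-sided p of an exact permutation test is 0.333. The fit was tried on simulated data with independent noise and no added shift in scaling, which cannot speak to the effect of the scaling. Replicates correlated across genes with r of 0.937 to 0.945.

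The members and gene lists were chosen with earlier results of these data known. All 10 members were named. From the other lists the rule named each gene with an adjusted p under 0.05 in either line and, per line, the pair with the lowest p, some given in the text only as counts. Alternatives were a pseudocount of 0.1, no filter, median scaling, quantile normalization, no trend, a replicate block, each line fitted alone, and each library left out. Gene positions are those of GENCODE v44 lifted to GRCh37.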

Additional observations from a re-analysis of the deposited data

Results flagged for a closer look

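The response to silencing differed between the lines (limma interaction, adjusted p under 0.05) for 6 genes of the neighbouring lists and for none of the 10 enzyme genes. Of all genes tested 0.244% passed. The 6 were 5 of the 13 ATF4 response genes tested and 1, CTH, of the 10 genes that use or carry serine and glycine. The log2 difference of the response, SK-N-MC minus RD-ES, was -4.48 for CHAC1, -3.01 for ATF3, -2.88 for SESN2, -2.40 for DDIT4, -2.32 for CTH and -1.68 for DDIT3. All 6 were higher in eKD2 in both RD-ES libraries than in either control and lower in eKD2 in both SK-N-MC libraries. The adjusted p of CHAC1, the largest, was 0.0012, and that of CTH was 0.0015.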

How the results depend on the processing

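Of 580 values of the 10 genes over 4 comparisons and the alternatives, 544 kept their direction and their side of the threshold, 21 lost the call, 5 gained one and 10 turned. Dropping the filter or the trend, the replicate block and fitting each line alone leave the log2 difference as it was. So does leaving out a library that the comparison does not use. The direction was fixed in advance in these settings, so 544 is no measure of robustness. The count of the 10 genes past the adjusted threshold in RD-ES, 2 as reported, was 3 with a pseudocount of 0.1. It stayed 2 without the filter and with quantile normalization. It was 1 after median scaling, 0 without the trend, 0 with the replicate block and 0 with RD-ES fitted alone. With any 1 library left out it was lower than as reported. Of all 15175 genes, 62 passed in RD-ES with the pseudocount of 0.1, 47 with quantile normalization, 46 after median scaling and 41 without the trend. The count of the 10 genes for the interaction, 0 as reported, was 1 without the filter on low values. Replicate numbers are not tied to a shared day or batch in the labels, and same-numbered libraries deviated with r of 0.056 (RD-ES) and 0.027 (SK-N-MC), so the block is given here only: with it 11 genes of all tested passed for RD-ES and 5 for SK-N-MC, against 52 and 49. With each line fitted alone the numbers were 1 and 13. Without the filter they were 79 and 118, but of 31445 genes tested in place of 15175. Values that turned were small ones. With a library left out, the log2 difference in RD-ES ran from -0.254 to 0.0853 for SHMT1, from -0.0638 to 0.222 for MTHFD1 and from -0.0208 to 0.136 for SHMT2, which was -0.0145 after median scaling. In SK-N-MC it ran from -0.0146 to 0.029 for PSAT1 and from -0.0846 to 0.385 for MTHFD1L. The interaction of MTHFD1L ran from -0.344 to 0.126. Between the control lines SHMT1 ran from -0.306 to 0.0326 and SHMT2 from -0.139 to 0.0267, with 0.0390 after quantile normalization. The MTHFD1L difference between control lines passed after median scaling (adjusted p = 0.0198), after quantile normalization (0.0371) and without SK-N-MC control replicate 2 (0.00446). The calls of CTH, CHAC1, SESN2, DDIT4, ATF3, DDIT3, ASNS and TRIB3 in RD-ES were lost with RD-ES fitted alone (adjusted p 0.108 to 0.319), as was that of SLC7A11 (0.49), which was also lost under most other alternatives. With the replicate block ATF3, TRIB3, ASNS and SLC7A11 lost their calls in RD-ES, and the interactions of CTH and ATF3 (0.0736) and DDIT3 (0.0584) lost theirs. The causes were not tested. With 2 libraries a group, differences smaller than the intervals given could not be detected.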
